A study of Mus musculus with 6 samples.

Results

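The WNT system of the neonatal mouse ovary was described through 44 of the 27098 genes in the count table. They were chosen by symbol, as all WNT ligands (19), Frizzled receptors (10), R-spondins (4), the R-spondin receptors Lgr4, Lgr5 and Lgr6, numbered secreted Frizzled-related proteins (4) and Dickkopf proteins (4). Ovaries from mice 3 days after birth were kept in DMEM/F12 medium with antibiotics for 2 h, either alone (control, 3 libraries) or with 2% platelet-rich plasma (PRP, 3 libraries). PRP is a plasma fraction rich in platelets and their growth factors, and the series text describes it as human and activated with thrombin. No control with thrombin or with another plasma was analysed here, and the labels give neither a strain nor any pooling of ovaries. Nothing in them tells whether the libraries of a group were separate cultures or animals, and the spread behind each p-value may therefore be technical.

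WNT proteins are secreted, lipid-bearing ligands that bind Frizzled receptors. In the canonical branch they act with the coreceptors Lrp5 and Lrp6, which spares beta-catenin from destruction and lets it act with TCF and LEF factors on genes such as Axin2. R-spondins bind Lgr4, Lgr5 or Lgr6 and hold back Znrf3 and Rnf43, the ubiquitin ligases that remove Frizzled from the surface. Secreted Frizzled-related proteins can bind WNT ligands outside the cell, and several Dickkopf proteins block the coreceptors. In the developing ovary, Wnt4 and Rspo1 are known for their part in female gonad differentiation, and Lgr5 for marking cells of the ovarian surface.

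The ovary transcribed a WNT system led by Wnt4 and Sfrp1, and none of its tested genes passed the test between PRP and control. Per kb of the longest transcript, Wnt4 was the ligand with the highest level, Rspo1 the leading R-spondin, Fzd1 and Fzd7 the leading receptors, and Lgr4 the leading R-spondin receptor. Of the 44 members, 34 had enough counts to be tested, and 0 of 34 passed an adjusted p of 0.05 in edgeR as unpaired groups (0% of all 17475 genes tested) or with the replicate number as a block (0.12% of all). At the median over the members, replicate number took more of the variance than treatment, though it also has more levels and so an advantage in such a share. Sfrp1 lay between 189 and 202 CPM in the libraries numbered 2 and between 267.5 and 319 CPM (a gene's counts scaled to a common library size) in the other libraries, control and PRP alike.

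Libraries held 35568000 to 36568367 counts, of which the 44 members took 0.134% to 0.153%. No pair of libraries looked like a repeat deposit (chi-square of counts 8.41 to 29.5 for each degree of freedom). Oocyte markers summed to 2536 to 3281 CPM and granulosa markers to 1641 to 1781 CPM over the libraries, so markers of both cell types of the follicle were present. Control 3 stood apart in erythroid markers, which summed to 1540 CPM there and to 109 to 225 CPM in the others. Stromal fibroblast markers summed to 8029 CPM in control 2 and 8663 CPM in PRP 2, against 8873 to 10500 CPM elsewhere. Ovarian surface epithelium markers summed to 727 to 800 CPM in control and 831 to 874 CPM in PRP, without overlap, and 10 of the 11 had a log2 fold change above 0 (median 0.16). The largest of them was Wt1, which is in the granulosa list as well. Wt1 measured 293 to 370.5 CPM in control and 329.5 to 391 CPM in PRP, with overlap. The separation of the sum therefore does not rest on surface genes alone. In bulk tissue, fewer cells of a type and less RNA per cell cannot be told apart.

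WNT ligands were dominated by Wnt4 and Wnt6. Wnt4 (Entrez 22417, GRCm38 chromosome 4, 137277635 to 137299501), which supports the female fate of the gonad, measured 293, 316 and 304 CPM in controls 1, 2 and 3 and 261, 343 and 328.5 CPM in PRP 1, 2 and 3. The PRP libraries thus included both the lowest and the highest value. Its log2 fold change, PRP minus control, was 0.03 ± 0.10 (SE, n = 3 per group), with a 95% interval of -0.19 to 0.25, which as a ratio runs from 0.877 to 1.19. Of the summed ligand level per kb of the longest transcript, Wnt4 made up 59.0% ± 0.8 in control and 57.6% ± 5.4 in PRP (SD, n = 3), and Wnt6 made up 25.4% ± 1.0 and 25.5% ± 3.7. With the median transcript as length, Wnt4 made up 44.0% in control and 43.2% in PRP. Wnt6 then made up 26.2% and 26.3%, and Wnt5a 18.5% in both groups. Wnt6 (Entrez 22420, chromosome 1, 74754342 to 74785322) measured 60.3, 66.0 and 68.2 CPM in control and 74.8, 63.8 and 63.6 CPM in PRP. PRP 1 held the highest Wnt6 and the lowest Wnt4 of the 6 libraries. Wnt6 had a log2 fold change of 0.06 ± 0.09 (SE), which a correction for GC content and length turned to -0.023.

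**Figure D1:**
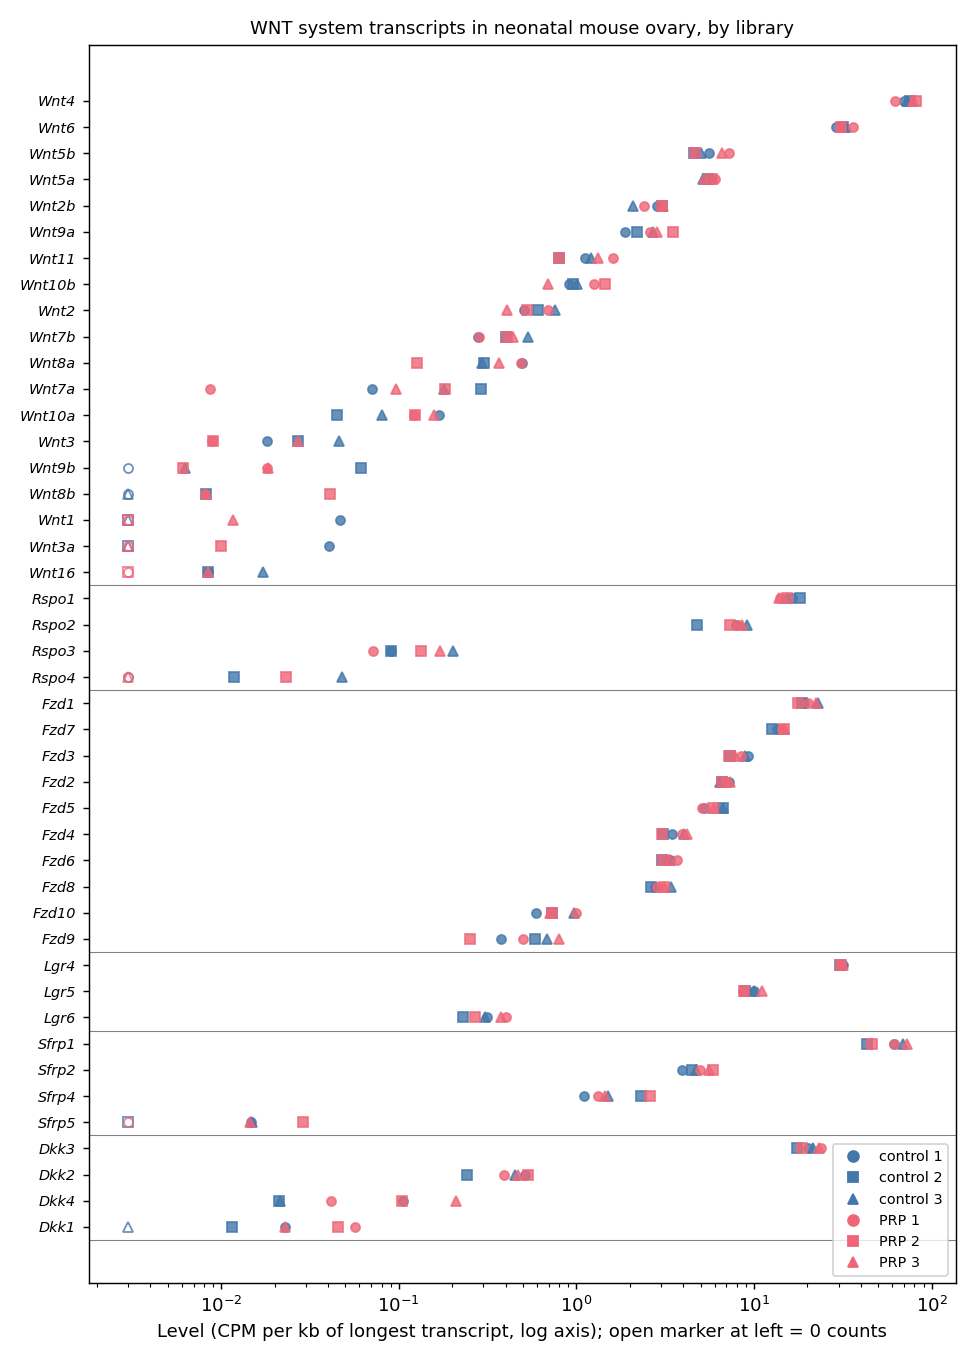
Levels of the 44 members in each of the 6 libraries, in CPM per kb of the longest transcript on a log axis. Colour gives the group and marker shape the replicate number, lines separate the roles, and an open marker stands for 0 counts; Wnt4 has the highest mean level (73.4 CPM per kb) and control and PRP points lie among each other in nearly all rows.

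The ligands of the non-canonical branch came next. Wnt5a (chromosome 14, 28504543 to 28527448), which steers cell polarity and movement, measured 39.9, 38.6 and 36.3 CPM in control and 42.0, 40.7 and 36.61 CPM in PRP. The PRP library was the higher one in all 3 pairs, by little, and the log2 fold change was 0.06 ± 0.09 (SE), or 0.116 after a correction for GC content and length. Wnt5b, its close relative, measured 13.2, 10.8 and 11.9 CPM in control and 17.1, 11.0 and 15.6 CPM in PRP. It too lay higher in each pair but the groups overlapped, with PRP 2 below controls 1 and 3. The log2 fold change of Wnt5b was 0.28 ± 0.18 (SE) unpaired and 0.27 ± 0.12 with the block, which did not pass (edgeR adjusted p = 0.433). The 2 genes had near-equal levels per kb of the longest transcript, 5.57 for Wnt5a and 5.60 for Wnt5b. This depended on the length used, as per kb of the median transcript they lay at 31.1 and 5.89.

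Wnt9a (chromosome 11, 59306849 to 59333552) had the highest log2 fold change of the ligands that averaged at least 1 CPM, 0.40 ± 0.19 (SE) with an interval of -0.02 to 0.83. It measured 6.27, 7.25 and 8.91 CPM in control and 8.65, 11.6 and 9.39 CPM in PRP. PRP was higher in all 3 pairs, and control 3 lay above PRP 1. With the block the difference was 0.41 ± 0.15 (SE) and did not pass (edgeR adjusted p = 0.318). Wnt2b measured 9.42, 10.03 and 6.96 CPM in control and 8.02, 10.05 and 10.2 CPM in PRP, and the groups overlapped. Wnt11, which takes part in convergent tissue movements, measured 3.85, 2.76 and 4.17 CPM in control and 5.52, 2.76 and 4.57 CPM in PRP; both libraries numbered 2 lay below the rest. Wnt10b ranged from 1.88 to 3.95 CPM, Wnt2 from 0.914 to 1.70 CPM and Wnt7b from 0.948 to 1.82 CPM, each with overlapping groups and an interval that spanned 0.

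Wnt7a, Wnt8a and Wnt10a were tested at under 1 CPM on average. Wnt7a had 8, 33 and 20 counts in control and 1, 21 and 11 counts in PRP, lower in each pair, with a log2 fold change of -0.90 ± 0.85 (SE). The interval of -2.83 to 1.03 shows how little such counts can resolve. Another 6 ligands, Wnt1, Wnt3, Wnt3a, Wnt8b, Wnt9b and Wnt16, had too few counts for the test. None of them exceeded 10 counts in a library, which was the value of Wnt9b in control 2. Wnt1, which neighbours Wnt10b on chromosome 15, had 4 counts in control 1, 1 count in PRP 3 and 0 in the other libraries, where 0 counts allow up to 0.0824 to 0.0852 CPM (3 counts). At this depth these transcripts were at or near the limit, and that covers counting error only.

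The sequences before the starts of these genes were rich in G and C. RefSeq promoter windows of GRCm38.p6 were matched for 29 of the 44 members (32 starts), and over the 250 bases before the start the median GC content was 67.4%, against 52.4% over all 32851 starts. The GC box GGGCGG, searched on both strands, was in 68.8% of members' windows and 32.7% of all windows. CTTTGAT, a core word of TCF and LEF sites, was searched on both strands in the same 250 bases. It was found in 2 of the 32 member windows (6.25%) and in 3.21% of all windows. Of the beta-catenin target genes described further on, 14 had windows, with 20 windows in all. The word was in 2 of these 20 windows (10%), those of Sp5 and Tnfrsf19. The windows of Wnt5b, Wnt11 and Sp5, with the word in capitals, and a stretch before Wnt4, with its GC boxes in capitals, are shown 5′ to 3′ on the strand of the gene because they carry the letters just counted. They lie at chr6:119449405-119449504 (minus strand, before the most downstream of 3 Wnt5b starts), chr7:98834982-98835081 (plus strand), chr2:70474772-70474871 (plus strand) and chr4:137277385-137277484 (plus strand).
Wnt5b: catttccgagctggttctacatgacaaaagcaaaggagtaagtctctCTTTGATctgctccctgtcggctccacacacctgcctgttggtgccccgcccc
Wnt11: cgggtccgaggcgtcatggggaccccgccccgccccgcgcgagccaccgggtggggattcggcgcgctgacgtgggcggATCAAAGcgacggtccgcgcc
Sp5: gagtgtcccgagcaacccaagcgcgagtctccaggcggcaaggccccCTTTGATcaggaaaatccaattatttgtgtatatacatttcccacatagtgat
Wnt4: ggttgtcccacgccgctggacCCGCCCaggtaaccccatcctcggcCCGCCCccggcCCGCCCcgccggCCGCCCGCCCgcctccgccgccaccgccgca
In Wnt11 the word stands on the opposite strand of the gene. A match in these windows is a description of letters and no binding was measured.

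Among the R-spondins, Rspo1 and Rspo2 carried the transcript pool. Rspo1 (Entrez 192199, chromosome 4, 124986401 to 125009102), which acts with Wnt4 in the female gonad, measured 29.9, 33.4 and 28.1 CPM in control and 25.8, 28.1 and 25.3 CPM in PRP. PRP lay lower in each of the 3 pairs, and the groups met at PRP 2 and control 3. The log2 fold change was -0.20 ± 0.10 (SE) with an interval of -0.44 to 0.02, and with the block -0.20 ± 0.08 with an interval of -0.38 to -0.03. Neither passed over all genes (edgeR adjusted p = 1.00 and 0.358). Rspo2 measured 26.5, 15.9 and 30.4 CPM in control and 27.0, 24.4 and 28.6 CPM in PRP. Control 2 alone stood low, and Rspo2 took 20.6% of the R-spondin level per kb there against 32.1% to 37.95% in the other libraries. For Rspo2 the log2 fold change was 0.14 ± 0.22 (SE). It had the opposite sign without control 2 (-0.09). Rspo3 had 8 to 22 counts per library, and Rspo4 at most 4.

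Summed over the 4 R-spondins, the level was 23.1 to 24.7 CPM per kb in control and 22.2 to 22.8 CPM per kb in PRP. With the median transcript as length the sums were 34.3 to 34.5 and 31.0 to 32.4 CPM per kb, again without overlap. A sum over genes chosen for this description was not tested. The R-spondin receptors overlapped, at 39.6 to 42.1 CPM per kb in control and 39.5 to 43.0 in PRP. Lgr4 (Entrez 107515, chromosome 2, 109917647 to 110014257) was the steadiest member named, at 161, 154.5 and 156.5 CPM in control and 154, 156 and 160 CPM in PRP, and its highest library was only 1.04 times its lowest. For Lgr4 the log2 fold change was -0.01 ± 0.06 (SE), with an interval of -0.13 to 0.12. Lgr5, a marker of the ovarian surface at this age, measured 48.0, 42.4 and 48.1 CPM in control and 41.4, 42.3 and 52.8 CPM in PRP, so that PRP held both extremes. Its log2 fold change was -0.02 ± 0.11 (SE). The surface epithelium markers given above summed higher in PRP, with Wt1, a granulosa marker too, as the largest of them. Krt19 of that list, at 56.0 to 66.2 CPM in control and 68.1 to 93.3 CPM in PRP, passed with the block (edgeR adjusted p = 0.0331). The part of these markers in the level of Lgr5 was not tested. After a correction for GC content and length, Lgr4 lay at 0.036 and Lgr5 at 0.025, with the sign turned in both. Lgr6 lay between 1.53 and 2.66 CPM, higher with PRP in each pair, with a log2 fold change of 0.30 ± 0.30 (SE).

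All 10 Frizzled receptors were transcribed and tested. Their summed level was 66.3 ± 5.2 CPM per kb in control and 66.5 ± 4.0 in PRP (SD, n = 3), of which Fzd1 made up 28.3% to 31.7% and Fzd7 20.4% to 23.6%. With the median transcript as length, Fzd1 made up 20.4% to 23.2%, Fzd6 19.5% to 22.5% and Fzd7 14.7% to 17.1%. Fzd1 (Entrez 14362, chromosome 5, 4753839 to 4758216) measured 80.0, 77.7 and 95.7 CPM in control and 84.4, 73.8 and 93.4 CPM in PRP. The libraries numbered 3 were the highest and those numbered 2 the lowest, and the log2 fold change was -0.01 ± 0.11 (SE). Fzd7 measured 61.2, 57.5 and 66.8 CPM in control and 65.1, 66.7 and 66.4 CPM in PRP, with a log2 fold change of 0.10 ± 0.07 (SE). Control 3 was its highest library, so the groups overlapped.

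The other receptors differed little between the groups. Fzd3, a receptor of axon guidance and polarity, measured 118, 93.1 and 114 CPM in control and 107.5, 92.2 and 100 CPM in PRP, and Fzd5 measured 36.2, 46.5 and 46.6 CPM in control and 35.1, 40.4 and 41.3 CPM in PRP. Both lay lower with PRP in each pair, with log2 fold changes of -0.12 ± 0.10 and -0.14 ± 0.12 (SE), without passing. A correction for GC content and length left no lower value in Fzd3 (0.003, and 0.002 with the block) and gave -0.117 in Fzd5. Fzd4, which also serves the ligand norrin in vessels, measured 23.1, 20.6 and 27.2 CPM in control and 26.4, 20.5 and 28.0 CPM in PRP. Fzd2 ranged from 23.6 to 26.7 CPM, Fzd6 from 13.1 to 16.0 CPM and Fzd8 from 15.7 to 20.4 CPM over all 6 libraries. Fzd10 (1.92 to 3.24 CPM) and Fzd9 (0.580 to 1.83 CPM) were the scarcest. Since no source states the strand of counting, reads of overlapping genes cannot be told apart: Fzd4 overlaps Tmem135, Fzd6 overlaps Gm26704, Lgr5 overlaps A930009A15Rik, Rspo1 overlaps Gm12930, Wnt2b overlaps St7l, Wnt6 overlaps Gm29539, Wnt11 overlaps Gm33770, Wnt7b overlaps AU022754, Wnt7a overlaps Gm30437, Wnt3 and Wnt9b overlap each other, and Wnt5b overlaps Fbxl14, Gm30690 and Gm52875.

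The secreted Frizzled-related proteins were led by Sfrp1 (Entrez 20377, chromosome 8, 23411383 to 23449632). It measured 267.5, 189 and 302 CPM in control and 268, 202 and 319 CPM in PRP, and the 2 groups ran in step from number to number. The log2 fold change was 0.06 ± 0.23 (SE) unpaired and 0.06 ± 0.05 with the block, whose interval of -0.04 to 0.16 was far narrower than the unpaired -0.49 to 0.61. Sfrp4 (chromosome 13, 19623175 to 19632825) ran the other way, at 4.46, 9.34 and 6.10 CPM in control and 5.36, 10.6 and 5.87 CPM in PRP: the libraries numbered 2 were the highest in Sfrp4 and the lowest in Sfrp1. Sfrp4 had a log2 fold change of 0.13 ± 0.34 (SE). Sfrp5 had at most 2 counts.

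Sfrp2 (Entrez 20319, chromosome 3, 83765750 to 83774314) was the one tested member whose groups did not overlap. It measured 7.89, 9 and 9.42 CPM in control and 9.97, 11.7 and 11.2 CPM in PRP, so that the lowest PRP library lay just above the highest control. Groups without overlap were found in 9.21% of all 17475 genes tested (4.34% with PRP higher) and in 2.94% of the 34 members. The log2 fold change was 0.32 ± 0.15 (SE) unpaired, with an interval of -0.005 to 0.653 that just included 0, and 0.32 ± 0.13 with the block (edgeR adjusted p = 0.363). The surface epithelium markers given above also summed higher in all PRP libraries than in control. Of the stromal fibroblast markers 11 of 12 had a log2 fold change above 0 (median 0.16). PRP 2, the highest library in Sfrp2, had a stromal sum below those of controls 1 and 3. Control 3, the highest control in Sfrp2, had the lowest surface epithelium sum of all libraries (727 CPM). It was also the lowest library in Wt1 (293 CPM), the largest gene of that sum and a granulosa marker too. The rank of control 3 therefore does not come from surface genes alone. The part of either list in the value of Sfrp2 was not tested.

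Of the Dickkopf genes, Dkk3, a divergent member of the family, made up 96.5% to 98.5% of the level per kb. It measured 67.7, 58.9 and 72.5 CPM in control and 79.6, 62.6 and 78.4 CPM in PRP. PRP was higher in each pair, while PRP 2 lay below controls 1 and 3. The log2 fold change was 0.15 ± 0.11 (SE) unpaired and 0.14 ± 0.06 with the block (edgeR adjusted p = 0.345). Dkk2, which can act as activator or inhibitor, ranged from 0.892 to 1.99 CPM. Dkk1, the classical inhibitor and itself a beta-catenin target, had 2, 1 and 0 counts in control and 5, 4 and 2 counts in PRP, and Dkk4 had 1 to 10 counts, too few for a test.

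**Figure D2:**
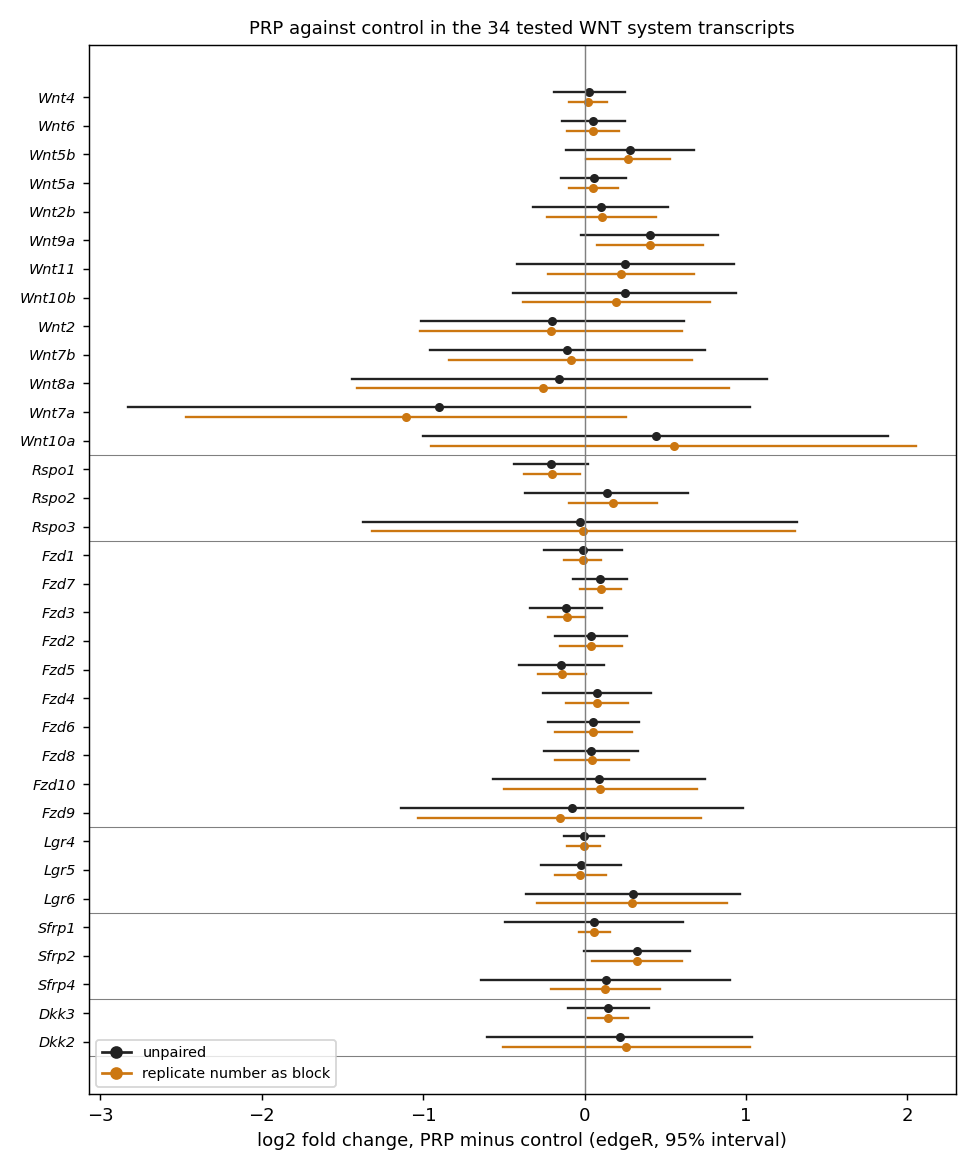
Log2 fold change, PRP minus control, with 95% intervals for the 34 tested members, unpaired (black) and with the replicate number as a block (orange); lines separate the roles. All 34 unpaired intervals span 0, and the blocked interval of Sfrp1 (-0.04 to 0.16) is much narrower than its unpaired one (-0.49 to 0.61).

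In edgeR 0 of 34 members passed unpaired, beside 0% of all 17475 genes, and 0 of 34 passed with the block, beside 0.12%. DESeq2 and limma-voom also called 0 members. At an unadjusted p under 0.05 there were 0 members unpaired in edgeR (3.19% of all genes), 1 in DESeq2, which was Sfrp2, and 0 in limma-voom. With the block there were 5 in edgeR, which is 14.7% of the members beside 11.2% of all genes: Wnt9a, Dkk3, Rspo1, Sfrp2 and Wnt5b. The 4 others lay higher in PRP than in control (5.31% of all genes did at that p), and Rspo1 lay lower (5.91%). The same direction in all 3 pairs was seen in 12 members, a share of 35.3% beside 33.1% of all genes. Of these, 8 lay higher with PRP (16.8% of all genes) and 4 lower (16.3%). The members' median log2 fold change was 0.05 (22 of 34 above 0), beside 0.00 for all genes (50.4% above 0). That median was 0.00 without control 2 and 0.13 without control 3, the library rich in erythroid transcripts, and 0 members passed in either case.

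Against the spread between these libraries, which may be technical, the intervals bounded the differences of the well-transcribed members. For 16 of the 34 tested members the unpaired 95% interval excluded a change of 1.5-fold in either direction, and for 20 it did so with the block. Wnt4, Wnt6, Wnt5a, Lgr4, Lgr5, Fzd1, Fzd7, Dkk3 and Rspo1 were among the 16. For Sfrp1, Sfrp4, Rspo2 and Wnt5b only the blocked interval excluded such a change, and for Wnt9a and Sfrp2 neither did.

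Members were ordered by level per kb, and neighbours were taken as separate where all 6 libraries of one lay above all 6 of the other. Wnt4 averaged 73.4 CPM per kb and Sfrp1 59.0, with overlapping libraries. They stood apart from the pair that followed, Wnt6 at 31.9 and Lgr4 at 31.0, which overlapped each other. Below a second gap came Dkk3 (20.8), Fzd1 (20.1), Rspo1 (15.5) and Fzd7 (14.1), in which no neighbours separated, and below the next gap Lgr5 (9.57) and the remaining members followed without any further gap. The order depended on which transcript gave the length. With the median transcript of each gene, Wnt4 and Sfrp1 had the same values, while Wnt5a moved from 5.57 to 31.1 CPM per kb and Fzd6 from 3.31 to 19.1. The receptors were then led by Fzd1 (20.1), Fzd6 (19.1) and Fzd3 (15.8), all above Fzd7 (14.1).

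The replicate number, whose meaning no label gives, took more of the variance than treatment at the median over these genes. It took more than 50% of the variance of log2 CPM in 21 of the 34 members (61.8%, beside 56% of all genes), with a median share of 66.7% beside 55.7%, and the treatment took a median of 8.32% beside 11.3%. Replicate number has more levels than treatment, so its share tends to be larger even without an effect, and the shares are not on equal terms. The share of replicate number was above 90% in 5 members, namely Sfrp1 (98.3%), Sfrp4 (95.5%), Fzd1 (94.2%), Wnt7b (94.1%) and Fzd4 (90.5%). It was lowest in Wnt2 (1.93%) and Wnt6 (4.50%). The libraries numbered 2 were the 2 lowest of all 6 in 10 members (29.4%, beside 14.2% of all genes): Sfrp1, Rspo2, Dkk3, Fzd1, Fzd3, Fzd4, Fzd6, Lgr6, Wnt5b and Wnt11. They were the 2 highest in Sfrp4 and Wnt7a (5.88%, beside 13.7%). Pericyte and smooth muscle markers summed to 333 CPM in control 2 and 375 CPM in PRP 2 and to 391 to 485 CPM elsewhere, and stromal markers were lowest in the same libraries, as given above. The sum of oocyte markers was lowest there too (2536 and 2576 CPM against 2752 to 3281 CPM elsewhere), but the list was mixed. Zp1, Zp2 and Zp3 were lowest there, Zp2 at 534 and 605 CPM against 722 to 1002 CPM. Kit, Dazl, Figla and Sohlh1 were highest there, Kit at 715 and 618 CPM against 527 to 585 CPM. In the granulosa list, Kitl was highest there (419 and 395 against 275 to 363.5 CPM). The sums of granulosa markers (1641 and 1703 against 1725 to 1781 CPM) and endothelial markers (394 and 381 against 407 to 486 CPM) were nonetheless lowest there. Macrophage and leukocyte markers (81.3 and 83.4 against 94.7 to 105 CPM) and the scarce adipocyte markers ran likewise. Surface epithelium, erythroid and oviduct markers did not. The part of any of these lists in the members' levels was not tested.

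**Figure D3:**
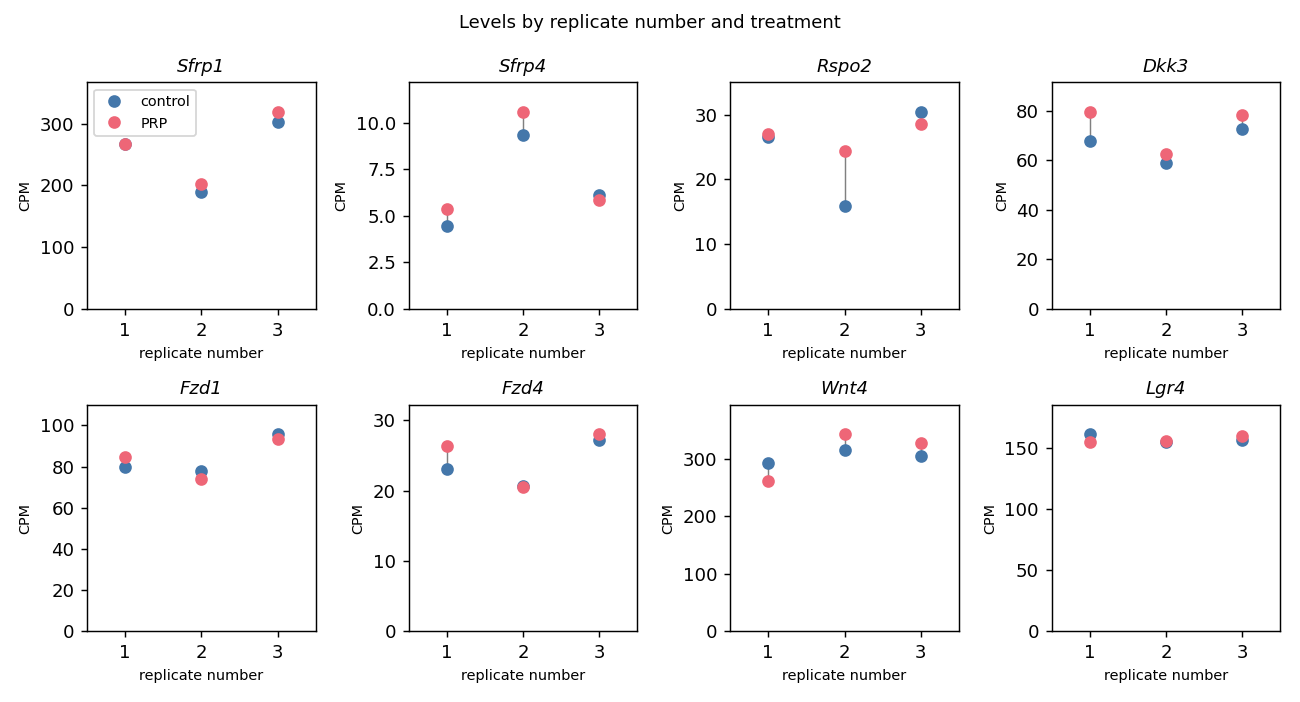
CPM of 8 members by replicate number, with control and PRP of the same number joined by a line and each axis starting at 0. Sfrp1 and Dkk3 are low and Sfrp4 is high at number 2 in both groups, whereas Lgr4 keeps to 154 to 161 CPM.

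Outside the members, 86 further genes of the pathway were examined in 6 lists, and 84 of them were tested. In edgeR 0 of 84 passed unpaired and 0 with the block, and at an unadjusted p under 0.05 there was 1 unpaired, Notum, and there were 10 with the block. Over all genes that p was reached by 3.19% unpaired and 11.2% with the block, so neither count stood out from the background. Their median log2 fold change was 0.01, with 48 above 0. Groups without overlap were found in 4 of the 84 with PRP higher (Notum, Trabd2b, Sp5 and Invs) and in 1 with PRP lower. Over all 17475 genes tested they were found in 758 with PRP higher and 851 with PRP lower, together 9.21%, so the 84 did not stand out. Among genes of secretion and coreceptors (15 tested, median 0.03), Wls, which carries WNT proteins to the surface, measured 158 to 175 CPM in control and 161 to 179 CPM in PRP, and Porcn, the enzyme that adds their lipid, 2.33 to 4.04 CPM in all. The coreceptor Lrp6 measured 214.5, 223 and 233 CPM in control and 190, 203 and 217 CPM in PRP, lower in each pair, with a log2 fold change of -0.14 ± 0.07 (SE) unpaired and -0.14 ± 0.05 with the block (edgeR adjusted p = 0.245). After a correction for GC content and length the value of Lrp6 was -0.061, unpaired and with the block (edgeR adjusted p = 0.758 with the block). Ptk7, a polarity coreceptor, had a log2 fold change of 0.08 ± 0.07 (SE).

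Antagonists outside the chosen families (14 tested) had a median log2 fold change of 0.21, with 11 above 0, but 0 passed. Notum, an enzyme that strips the lipid from WNT proteins and is a beta-catenin target, measured 1.03, 1.14 and 1.08 CPM in control and 2.28, 1.63 and 1.52 CPM in PRP without overlap. Its log2 fold change was 0.74 ± 0.33 (SE; unadjusted p = 0.0491 and adjusted p = 1.00 in edgeR). Trabd2b, a protease that inactivates WNT proteins, measured 17.7, 15.9 and 17.5 CPM in control and 18.9, 22.2 and 18.8 CPM in PRP, also without overlap, at 0.23 ± 0.12 (SE). The ligases Znrf3 and Rnf43 had log2 fold changes of 0.00 ± 0.14 and 0.14 ± 0.20 (SE). Frzb, a relative of the Sfrp genes, ranged from 0.195 to 1.40 CPM, and Wif1 did not reach the filter, at 0.0554 to 0.223 CPM. Draxin had the largest fold change of the list, 1.07 ± 0.76 (SE), and ranged from 0.474 to 2.67 CPM in control and from 0.994 to 4.90 CPM in PRP. It was higher in each pair, and with the block it had the smallest adjusted p of the 84 genes (edgeR adjusted p = 0.162).

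Readout genes of beta-catenin gave no call either. Of 20 tested targets 14 had a log2 fold change above 0, with a median of 0.05. Axin2, the most general of them, measured 85.2, 80.5 and 78.6 CPM in control and 86.8, 81.3 and 89.1 CPM in PRP. PRP was higher in each pair, the groups overlapped, and the log2 fold change was 0.07 ± 0.07 (SE) with an interval of -0.07 to 0.22. Nkd1, a feedback inhibitor, had a log2 fold change of 0.06 ± 0.10 and Lef1 one of 0.00 ± 0.16 (SE). Sp5, whose upstream sequence is printed above, measured 4.82, 4.63 and 4.71 CPM in control and 6.37, 6.04 and 5.57 CPM in PRP, without overlap. Its log2 fold change was 0.34 ± 0.18 (SE; edgeR adjusted p = 1.00, and 0.494 with the block). Cd44, Msx2 and Ascl2 lay at -0.17, -0.48 and 0.73.

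In the intracellular relay, Ctnnb1, which encodes beta-catenin, measured 743 to 761 CPM in control and 758 to 784 CPM in PRP, with a log2 fold change of 0.03 ± 0.05 (SE). The 16 tested genes of the relay and its destruction complex had a median of -0.01. Tnks and Btrc, which turn over Axin and beta-catenin, lay lower in each pair, at -0.16 ± 0.07 and -0.14 ± 0.07 (SE). After a correction for GC content and length they lay at -0.091 and -0.075. Gsk3b, a kinase of the destruction complex, was the one gene of the 84 tested whose PRP libraries all lay below the controls. Over all 17475 genes tested 851 did so. Gsk3b lay at -0.11 on the log2 scale, and it did not pass (edgeR adjusted p = 1.00, and 0.433 with the block). Among 12 genes of the TCF and LEF complex the median was -0.01, with Tcf7l2 at 0.11 ± 0.09 and Tle1 at -0.08 ± 0.08 (SE). Among 13 genes of planar polarity it was -0.02, with Invs at 0.22 ± 0.14 and Daam1 at -0.14 ± 0.10 (SE), or -0.091 for Daam1 after the correction for GC content and length.

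**Figure D4:**
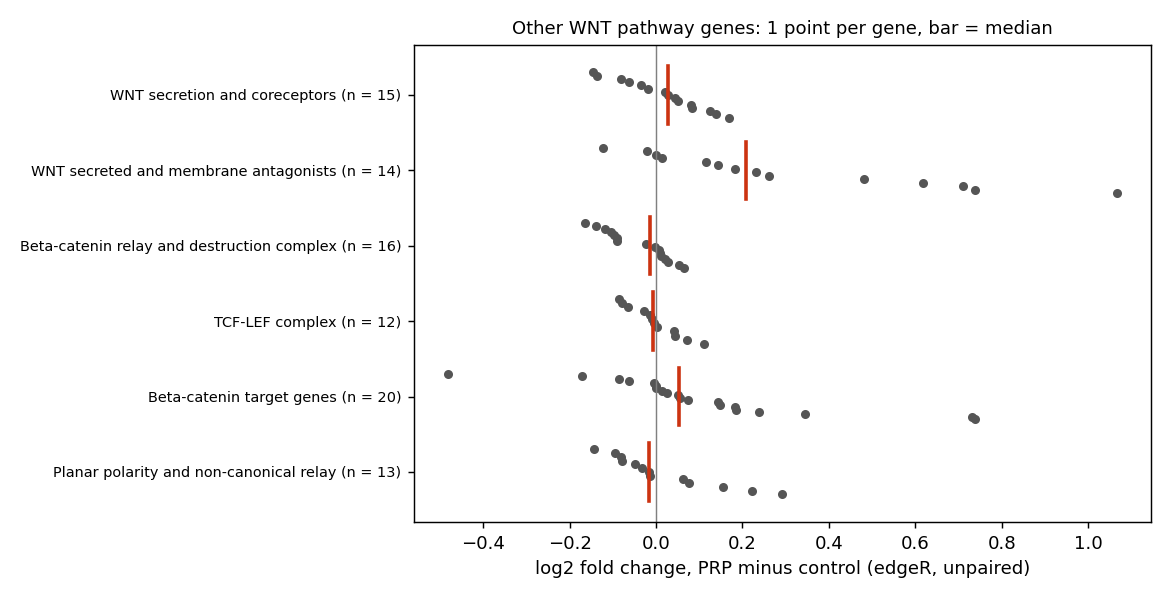
Log2 fold change, PRP minus control, of the other WNT pathway genes in 6 lists, 1 point per tested gene, with the median of each list as a bar; a gene in 2 lists appears in both. Medians lie between -0.02 and 0.21, and the widest points belong to scarce antagonists and targets such as Draxin, Notum and Msx2.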

How the data were processed

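What the authors deposited is a table of raw read counts for 27098 gene symbols in 6 RNA sequencing libraries, with nothing normalized. GRCm38/mm10 is the genome build per the submitters' processing notes, while aligner, counter, strand setting and annotation were not given in the sources used here. Columns were tied to samples through their titles, and the only column whose spelling differs from a title was assigned to PRP 3, the title that remained. Libraries held 35568000 to 36568367 counts. Limits of 0 counts cover counting error only, while intervals come from the fit and include the spread between libraries.

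Differences were fitted in edgeR 4.0.16 (R 4.3.3) after filterByExpr, which left 17475 genes, with TMM scaling and the robust two-sided quasi-likelihood test. P-values were adjusted by Benjamini and Hochberg over all of these genes and called at 0.05. The SE is the size of a fold change divided by the root of its F value, and intervals are 95%. Levels per kb use the longest GENCODE M21 transcript. Shares of variance are sums of squares of log2 CPM. DESeq2 1.42.0, limma 3.58.1 (voom), other scalings and filters, a GC and length correction and omission of each library served as alternatives. The fit was tested on simulated data.

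Control and PRP share the numbers 1 to 3, without a label saying why. Over 17475 genes, departures from the group mean correlated between control and PRP at 0.24 (number 1), 0.40 (number 2) and 0.33 (number 3), and at most at -0.02 for unlike numbers. Departures are centred within each group, so positive values for like numbers push those for unlike numbers below them, which is no separate support. The pairing was accepted on the like numbers, from the data alone, and blocked values are given where they bear on a member.

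The members and lists were chosen with earlier results of these data known. The rule for naming took members averaging at least 1 CPM, 11 pathway genes, and the 2 genes of smallest p in each of 6 lists. Rspo3, Wnt7a, Wnt8a, Wnt10a, the 10 untested members, Draxin, Gsk3b, Cd44, Msx2, Ascl2, Tnfrsf19 and Krt19 were named after their values were seen. The promoter search was also added then, and protein sequences were not used here.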

Additional observations from a re-analysis of the deposited data

How the results depend on the processing

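With the replicate number as a block, edgeR called 21 of all genes, 12 with a GC and length correction added and 79 in DESeq2, against 0 unpaired. Members and other pathway genes had 0 calls in every setting run, although in the blocked DESeq2 fit only 5 of 34 members had an adjusted p, so the block changed no member's call. Leaving out a library, or a pair in the blocked fit, gave 0 to 19 calls among all genes and a median of 0 to 0.127 over the members. Of 1111 combinations of 50 named genes and a setting, 0 passed and 79 had the opposite sign. The sign was the same in every setting for 24 of the genes, Wnt9a, Sfrp2, Rspo1, Wnt5b and Dkk3 among them. With the GC and length correction the log2 fold change turned to 0.003 in Fzd3, 0.036 in Lgr4, 0.025 in Lgr5, -0.023 in Wnt6, 0.018 in Lef1 and 0.032 in Znrf3. With correction and block it turned to 0.002 in Fzd3, 0.036 in Lgr4, 0.02 in Lgr5, -0.022 in Wnt6, 0.01 in Lef1, 0.019 in Znrf3 and just under 0 in Wnt4. Upper quartile factors gave 0.003 in Lgr4, 0.004 in Lef1 and 0.008 in Znrf3, and library totals or no filter gave 0.003 in Znrf3. The cause was not tested. Leaving out 1 library or pair turned the sign of 25 genes, with these ranges: Dkk2 (-0.16 to 0.589), Frzb (-0.706 to 0.885), Fzd10 (-0.229 to 0.378), Fzd1 (-0.094 to 0.089), Fzd2 (-0.028 to 0.09), Fzd4 (-0.012 to 0.203), Fzd6 (-0.014 to 0.118), Fzd8 (-0.051 to 0.159), Fzd9 (-0.531 to 0.316), Lef1 (-0.107 to 0.12), Lgr4 (-0.024 to 0.02), Lgr5 (-0.141 to 0.065), Nkd1 (-0.05 to 0.132), Porcn (-0.271 to 0.142), Rnf43 (-0.05 to 0.269), Rspo2 (-0.093 to 0.331), Sfrp1 (-0.113 to 0.216), Sfrp4 (-0.24 to 0.462), Wnt10b (-0.019 to 0.54), Wnt2 (-0.548 to 0.127), Wnt2b (-0.114 to 0.273), Wnt4 (-0.047 to 0.141), Wnt6 (-0.077 to 0.131), Wnt7b (-0.316 to 0.145), Znrf3 (-0.153 to 0.128). Depth limits the scarce members: the interval of Wnt7a ran from -2.83 to 1.03.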
